A study of Mus musculus with 8 samples.

Results

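The genes described here are 7 mouse genes of antimicrobial and RNA-degrading ribonucleases: Ang, Ang4, Ang5 and Ang6 of the angiogenin family, their pancreatic-type relatives Rnase1 and Rnase4, and Rnh1, which encodes the cytosolic inhibitor that binds these enzymes. They were chosen by symbol, with earlier results of these data known, from the 55414 gene identifiers of a count table. All 7 were found in it. The table holds RNA-seq counts of Paneth cells sorted by flow cytometry from the small intestine of 8 mice of the C57BL/6J strain, which carried no other stated allele. The 4 control mice ate standard chow and the 4 zinc deficient mice ate zinc depleted chow, in both cases freely and for 7 weeks, and each mouse gave 1 library. The sources used here give neither the age nor the sex of each mouse, nor the zinc content of the chow, and the study states that its datasets hold male and female animals.

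Ribonucleases of the RNase A superfamily are small secreted enzymes, held together by disulfide bonds, that cut single-stranded RNA after pyrimidines. Angiogenin was found as a protein that induces the growth of blood vessels, and it also cuts transfer RNAs in stressed cells. The mouse has several angiogenin genes where humans have a single gene, and Ang4 is known as a product of Paneth cells, the granular secretory cells at the base of the intestinal crypts, that is released into the gut lumen and kills bacteria. Ang5 and Ang6 are its less studied relatives. Rnase1 encodes the ribonuclease best known from pancreatic juice, Rnase4 encodes an enzyme that prefers uridine in its substrate, and the inhibitor encoded by Rnh1 protects cellular RNA from such enzymes when they reach the cytosol.

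Of the 7 genes, 6 lie on chromosome 14 and Rnh1 lies on chromosome 7 (GENCODE M39 on GRCm39). Ang4 (ENSMUSG00000060615) spans chr14:51990721-52011053 on the minus strand and Rnase1 (ENSMUSG00000035896) spans chr14:51382455-51384247 on the minus strand. Ang5 (ENSMUSG00000053961) spans chr14:44194526-44200537 on the plus strand and Ang6 (ENSMUSG00000072598) spans chr14:44239121-44243875 on the minus strand. Ang (ENSMUSG00000072115) and Rnase4 (ENSMUSG00000021876) start at the same base of the plus strand and span chr14:51328534-51341074 and chr14:51328534-51343608. Rnh1 (ENSMUSG00000038650) spans chr7:140740235-140752775 on the minus strand.

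The angiogenin genes are close copies, so the starts of their coding sequences are shown first, because they are what lets a read be given to one copy and not another. Aligned over the whole coding sequence, Ang4 shares 88.1% of alignment columns (gaps included) with Ang5, 85.1% with Ang6 and 84.9% with Ang. It shares only 53.6% with Rnase1 and 54.4% with Rnase4. The first 60 coding bases of the 4 angiogenin genes on GRCm39 are given below, with capitals for bases that differ from Ang4.
Ang4: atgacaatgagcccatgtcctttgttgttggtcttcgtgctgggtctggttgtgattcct
Ang5: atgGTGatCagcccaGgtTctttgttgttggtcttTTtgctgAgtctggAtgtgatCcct
Ang6: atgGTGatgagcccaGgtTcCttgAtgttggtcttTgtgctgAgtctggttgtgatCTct
Ang: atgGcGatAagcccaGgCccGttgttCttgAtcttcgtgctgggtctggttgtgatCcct
Ang5 and Ang6 each differ from Ang4 at 11 of these bases, and Ang differs at 9. Of all windows of 70 bases in the canonical transcript of a gene, the share that no transcript of another annotated gene holds on either strand was 98.5% for Ang4, 94.4% for Ang5, 96.0% for Ang6, 100% for Rnase1 and 97.0% for Rnh1.

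The exception was the pair Ang and Rnase4, with 66.1% and 54.1% of such windows not shared. In the annotation both genes use the same exons ahead of their own coding exon, of 177 bases (chr14:51328534-51328710) and 1210 bases (chr14:51332721-51333930). In all, they share 1387 exonic bases on the same strand, which is 35.4% of the exonic bases of Ang and 49.4% of those of Rnase4. How reads from these exons were counted is not given in the sources used here, so the counts of Ang and Rnase4 are uncertain to that extent. Ang4 also overlaps a pseudogene on the opposite strand, Ear-ps3, by 245 bases (13.9% of its exons), and that pseudogene had 0 counts.

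**Figure D1:**
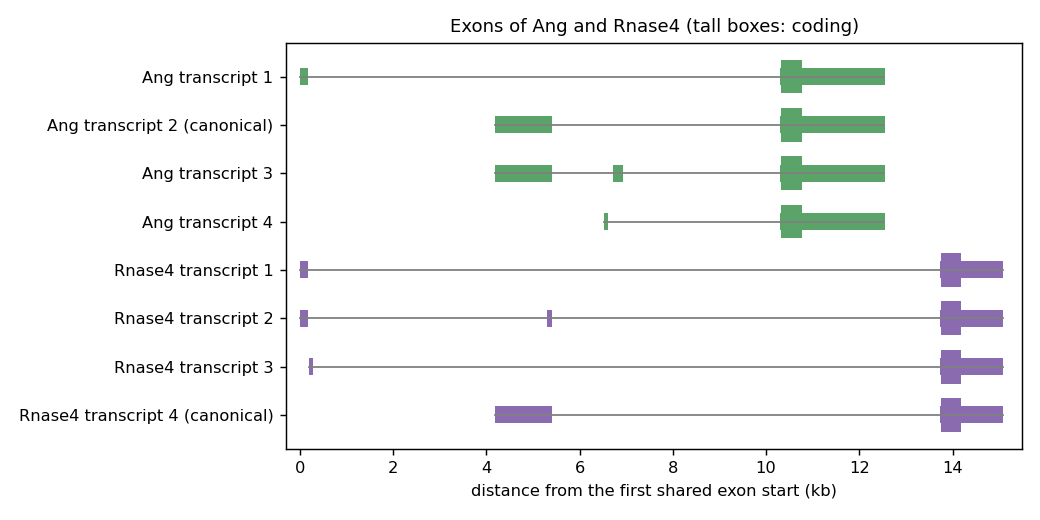
Exons of the annotated transcripts of Ang (green) and Rnase4 (purple) against the distance from the start of their first shared exon in kb, with tall boxes for coding sequence. The first exon of 177 bases and the exon of 1210 bases stand at the same place in transcripts of both genes, while each gene has a coding exon of its own.

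The 250 bases before the RefSeq start of transcription are shown for Ang4, the most abundant of the 7 genes in these cells, and for Ang5, which had almost no counts. They come from the RefSeq promoter table (GRCm38.p6), each was found once on chromosome 14 of GRCm39, and they are written 5′ to 3′ on the strand of the gene. Capitals mark the 42 bases of each that have no identical partner in the alignment of the pair.
Ang4, chr14:52011048-52011297, minus strand: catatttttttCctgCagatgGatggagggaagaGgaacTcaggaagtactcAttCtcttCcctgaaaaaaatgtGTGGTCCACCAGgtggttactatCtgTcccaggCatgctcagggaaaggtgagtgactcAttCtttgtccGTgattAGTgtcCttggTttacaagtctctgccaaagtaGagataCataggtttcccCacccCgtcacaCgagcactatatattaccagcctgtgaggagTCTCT
Ang5, chr14:44194276-44194525, plus strand: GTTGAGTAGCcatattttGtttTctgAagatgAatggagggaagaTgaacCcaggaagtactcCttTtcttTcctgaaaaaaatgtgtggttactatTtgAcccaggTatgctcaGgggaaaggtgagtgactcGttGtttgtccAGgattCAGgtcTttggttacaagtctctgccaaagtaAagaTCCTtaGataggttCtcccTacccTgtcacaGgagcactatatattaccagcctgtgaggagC
Over this alignment, 77.9% of the columns were identical, with 25 mismatches and 34 gap bases. The 250 bases before Ang6 were identical to those before Ang5, with 0 mismatches. Both sequences hold the letters TATATA, which begin 29 bases before the start of Ang4 and 25 bases before that of Ang5 and Ang6. Searched on both strands, TATATA was present in 5.25% of the 32851 promoters of the table. The letters CTTTG, the core bound by factors of the TCF family, occurred once on each strand before Ang4, Ang5 and Ang6, and in 48.6% of all promoters. The core of the metal response element, TGCNCNC, was in none of these windows, and 44.4% of all promoters hold it on either strand.

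The first start of Ang and Rnase4 is the same base, so both have the same window there. It is shown because it stands before 2 of the genes measured, and neither TATATA nor CTTTG occurs in it. The table gives Rnase4 a second start as well, whose window (chr14:51333207-51333456, not shown) lies inside the shared exon of 1210 bases and holds TATATA 90 bases before that start. The window of the first start shares 45.4% of alignment columns with that of Ang4, and the window of the second start shares 43.2%.
Ang and Rnase4, chr14:51328284-51328533, plus strand: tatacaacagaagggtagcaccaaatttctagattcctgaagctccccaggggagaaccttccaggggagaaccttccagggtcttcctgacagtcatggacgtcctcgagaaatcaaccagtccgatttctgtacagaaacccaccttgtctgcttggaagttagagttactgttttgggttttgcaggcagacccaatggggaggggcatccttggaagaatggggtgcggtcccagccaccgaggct

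The libraries held 8557690 to 12648005 counts. Levels are given as CPM (the counts of a gene in a library scaled to a total of 1000000) for a gene across mice, and as TPM (the same, with the counts first divided by the summed exon length) wherever genes are compared with each other. The Paneth cell markers Lyz1, Mmp7, Itln1 and Mptx2 summed to 214287 to 243044 CPM in the control mice and 235571 to 268660 CPM in the zinc deficient mice. Goblet cell markers summed to 5785 to 8517 CPM and 5654 to 10050 CPM, stem cell markers to 1279 to 2011 CPM and 461 to 1034 CPM, and cycling cell markers to 40.4 to 116 CPM and 13.9 to 41.1 CPM. Of all marker genes, 1 passed the test between diets, the cycling marker Top2a (log2 fold change -1.18, adjusted p = 0.0229), where 0.257% of all tested genes were called lower. Enterocyte markers stayed at or under 87.3 CPM in sum. Enteroendocrine markers summed to 8.53 to 20.1 CPM in the control mice and 1.11 to 8.44 CPM in the zinc deficient mice. Tuft cell markers summed to 31.4 to 52.5 CPM in the control mice and 8.44 to 219 CPM in the zinc deficient mice. In every mouse, the sums of immune, stromal and erythroid markers were at or under 2.79 CPM, 0.169 CPM and 0.761 CPM. The library of control mouse 1 had a scaling factor of 1.57 by the trimmed mean of M values (TMM), against 0.719 to 1.16 in the other mice, so results that move by over 1.5 times without it are given without it too.

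The members differed widely in level. Over all 8 mice the order of mean TPM was Ang4 (7848 ± 2998, SD, n = 8), Rnase1 (442 ± 114), Rnase4 (195 ± 19.4), Ang (18.7 ± 2.22), Rnh1 (10.6 ± 2.47), Ang6 (0.141 ± 0.235) and Ang5 (0.0260 ± 0.0484). Neighbours in this order were compared within each mouse as differences of log2(TPM + 0.1), with an exact two-sided permutation test over all sign flips and adjustment over the 6 pairs. In 5 of the 6 pairs the upper gene was higher in 8 of 8 mice, with an exact p = 0.00781, the smallest that 8 mice allow, and an adjusted p = 0.00938. The order was taken from these same 8 mice, and the length of a gene is the same in all of them. The test thus shows agreement between mice and is no separate support for the order.

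Ang4 exceeded Rnase1 by 4.13 on the log2 scale of TPM, Rnase1 exceeded Rnase4 by 1.14 and Rnase4 exceeded Ang by 3.38. Ang exceeded Rnh1 by 0.84 and Rnh1 exceeded Ang6 by 5.81. Ang6 and Ang5 did not pass the test, with Ang6 higher in 4 of 8 mice, a difference of 0.64 and an exact p = 0.281. Since most counts of Ang6 and Ang5 are 0, the values that involve them are set by the pseudocount: with a pseudocount of 1 or 0.01 in place of 0.1, the difference of Rnh1 and Ang6 was 3.33 or 7.48, and that of Ang6 and Ang5 was 0.13 or 1.66. The places of Rnase1 and Ang depend on the length used. With no division by length, Rnase1 was below Rnase4 by a difference of -0.35 (adjusted p = 0.122 in the same exact test), and with the length of the canonical transcript alone, Ang was below Rnh1 by -0.65 (exact test, adjusted p = 0.00938).

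**Figure D2:**
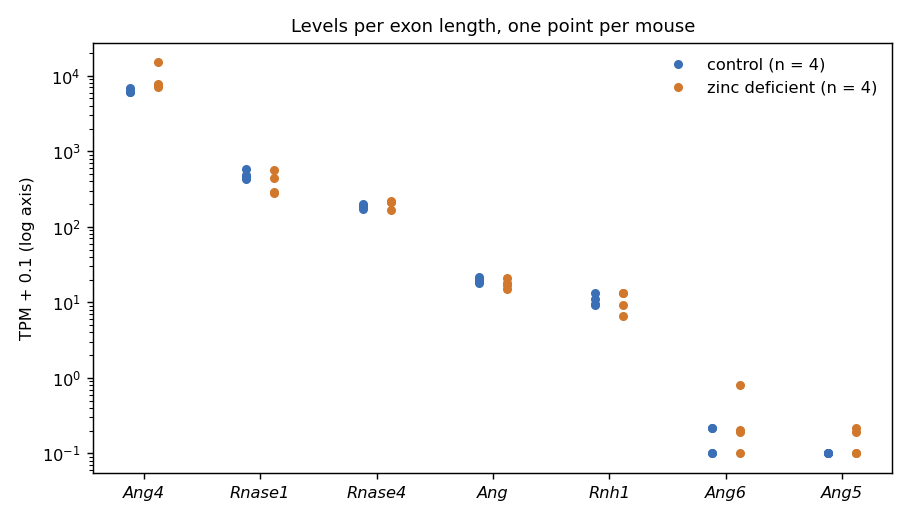
TPM + 0.1 on a log axis for the 7 genes in order of their mean, with a point for each mouse (blue for the 4 control mice, orange for the 4 zinc deficient mice). Ang4 lies far above all others, while most points of Ang6 and Ang5 are at or near 0.1, which stands for 0 counts.

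Ang4, the microbicidal angiogenin of Paneth cells, was among the most abundant transcripts of the library. In the control mice it took 1.17%, 1.40%, 1.34% and 1.36% of all counts, and in the zinc deficient mice 1.69%, 1.70%, 1.61% and 3.34%. The 95% Wilson interval of the lowest of these shares was 1.16% to 1.17% and that of the highest 3.33% to 3.35%, which covers counting error only. Among all 55414 genes, Ang4 ranked 9 by CPM in 7 of the mice and 7 in zinc deficient mouse 4. These shares and ranks depend on how reads that match several alpha-defensin (Defa) genes were counted, which the sources used here do not give. For a typical experiment, expressed as TPM, the study names only Defa genes, Lyz1 and an intelectin gene among the most abundant transcripts. Ang4 made up 88.8% to 91.1% of the summed TPM of the 6 ribonucleases in the control mice and 91.9% to 95.2% in the zinc deficient mice.

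By mouse, Ang4 stood at 11669, 14037, 13424 and 13564 CPM in the controls (13173 ± 1037, SD, n = 4). In the zinc deficient mice it stood at 16906, 16984, 16055 and 33404 CPM (20837 ± 8389, SD, n = 4). The groups did not overlap, and zinc deficient mouse 4 stood far above the other three of its group. On CPM, Ang4 was the only member whose zinc deficient values all lay above the controls, which held for 0.302% of all tested genes. On the TMM scale the values were 7442, 12101, 14483 and 14329 CPM against 18102, 23642, 14681 and 39518 CPM, still without overlap, as for 2.3% of tested genes. Since the samples are bulk, a change in the share of cells and a change in RNA per cell cannot be told apart.

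**Figure D3:**
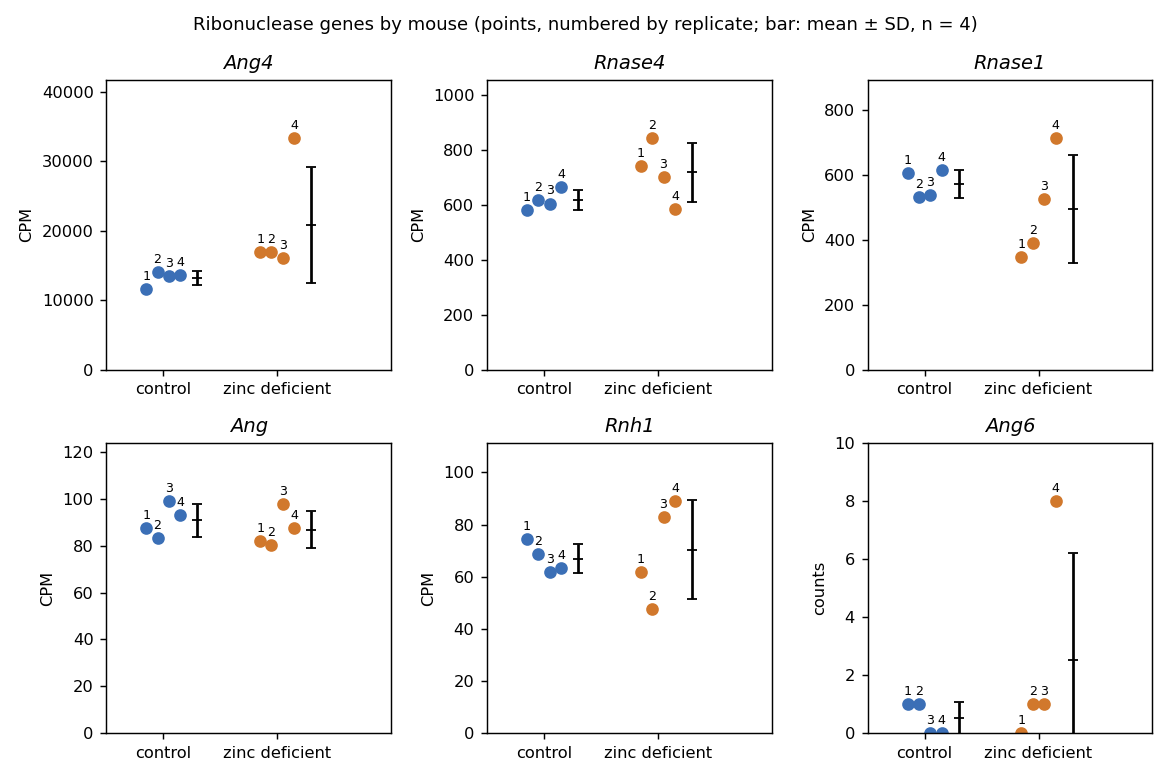
Levels in CPM of Ang4, Rnase4, Rnase1, Ang and Rnh1, and counts of Ang6, by mouse and diet, each point numbered by its replicate and the bar showing mean ± SD (n = 4). The zinc deficient points of Ang4 lie above all control points with mouse 4 at 33404 CPM, and in the other genes the diets overlap.

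The diet comparison asks whether transcript levels in libraries of sorted Paneth cells differed between mice on zinc depleted and standard chow. Across all genes, the edgeR quasi-likelihood test with Benjamini-Hochberg adjustment called 44 of 10911 genes (0.403%, at an adjusted p under 0.05), of which 16 had higher and 28 lower levels on the zinc depleted chow. None of the 5 members that passed the expression filter (Ang, Ang4, Rnase1, Rnase4 and Rnh1) was called, and none was by DESeq2, which called 1.34% of genes. At an unadjusted p under 0.05, 3 of the 5 members (Ang4, Rnase4 and Rnh1) were higher, against 4.43% of all tested genes. This count holds on the TMM scale with all mice kept. It also holds with control mouse 3 or 4, or zinc deficient mouse 1 or 3, left out alone. Without control mouse 1, Ang4 alone was under 0.05 (edgeR unadjusted p = 0.0147), with Rnase4 at 0.0717 and Rnh1 at 0.0916. Without zinc deficient mouse 4, Rnase4 alone was (0.0194), with Ang4 at 0.0624 and Rnh1 at 0.172. Without control mouse 2 it was Ang4 alone, and without zinc deficient mouse 2 it was Ang4 and Rnh1. With scaling by library size, and in an exact permutation test of log2(CPM + 1), Ang4 alone of the 5 had an unadjusted p under 0.05. Their median log2 fold change was 0.39, against -0.01 over all tested genes. All 5 differences were above 0 on the TMM scale, but with scaling by library size alone those of Ang and Rnase1 were below 0, and the median of all genes moved by 0.36 on the log2 scale, from -0.01 to -0.37.

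The difference of Ang4 was the largest of the 5. Its log2 fold change was 0.99 ± 0.35 (SE), a fold of 1.98, with an adjusted p = 0.276 in the edgeR test, and it ranked 419 of 10911 genes by p. Scaled by library size, the difference was 0.66, or 1.03 above the median of all genes on that scale. An exact permutation test of log2(CPM + 1) over the 70 assignments of mice to diets gave a difference of 0.59 and p = 0.0286, the smallest this design allows. With no expression filter, Ang4 passed the threshold (log2 fold change 0.99, edgeR adjusted p = 0.0345), in a fit that called 0.568% of genes higher. Without zinc deficient mouse 4 the log2 fold change was 0.64 (edgeR adjusted p = 0.696), and without that mouse and control mouse 1 it was 0.46 (adjusted p = 0.770).

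Zinc deficient mouse 4 differed from its group in some other secretory genes as well. Its goblet cell marker sum was 10050 CPM, against at most 7736 CPM in the other zinc deficient mice. Muc2, the main mucin of goblet cells, had 299, 546, 1005 and 2056 CPM in the zinc deficient mice, so mouse 4 was highest. Fcgbp and Zg16, which goblet cells also make, were 94.2 and 0.316 CPM in mouse 4, both below their highest values in that group of 921 and 29.3 CPM. The remaining goblet cell markers, Clca1 and Spink4, were highest in mouse 4, at 147 and 7752 CPM. In the other zinc deficient mice they reached at most 115 and 5666 CPM. Spink4 thus made up most of the marker sum. Of the 4 Paneth cell markers, Mptx2, a pentraxin gene, was highest in mouse 4, at 25300 CPM against 12141 to 16037 CPM in the other three. Lyz1 was lowest there, at 141365 CPM against 152586 to 181556 CPM, Itln1 (62235 CPM) and Mmp7 (6672 CPM) lay within the range of the others, and the sum of the 4 was the lowest of the group, at 235571 CPM. The lectin genes Reg3b and Reg3g were also highest in mouse 4, at 742 and 2461 CPM. In the other zinc deficient mice they had 345 to 608 CPM and 1620 to 1923 CPM. The part of these differences in the level of Ang4 was not tested. The count ratio of Ang4 to the lysozyme gene Lyz1 was 0.0814 to 0.0920 in the control mice and 0.0931 to 0.236 in the zinc deficient mice. These ranges nearly meet, and the ratio reuses the Ang4 counts, so it is not a separate result. How many other genes have such ranges was not counted. The highest ratio is that of mouse 4, where Lyz1 was lowest.

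Rnase4 and Ang share their first exons but differed in level. Rnase4 had 580, 617, 605 and 666 CPM in the control mice (617 ± 36.0, SD, n = 4). In the zinc deficient mice it had 741, 845, 703 and 584 CPM (718 ± 108, SD, n = 4). Mice 1 to 3 of the zinc deficient group lay above all controls, while mouse 4, the highest in Ang4, lay among them. The log2 fold change of Rnase4 was 0.55 ± 0.24 (SE), with an adjusted p = 0.418 in the edgeR test. It was 0.22 with scaling by library size, and 0.33 without zinc deficient mouse 2, the highest in this gene.

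Ang, the gene of angiogenin itself, was lower and more even. The control mice had 87.5, 83.5, 99.2 and 93.4 CPM (90.9 ± 6.88, SD, n = 4) and the zinc deficient mice 81.9, 80.2, 97.9 and 87.8 CPM (87.0 ± 7.97, SD, n = 4). The groups overlapped. The edgeR log2 fold change was 0.24 ± 0.18 (SE, adjusted p = 0.706), and it was -0.06 with scaling by library size. It was 0.08 without control mouse 1 and 0.38 without control mouse 3. Counts of Rnase4 were 6.63, 7.39, 6.10 and 7.13 times those of Ang in the control mice and 9.04, 10.5, 7.18 and 6.65 times in the zinc deficient mice, so the ranges of this ratio overlapped as well.

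Rnase1, the pancreatic-type enzyme, had the widest spread between zinc deficient mice after Ang4. Its levels were 604, 532, 538 and 614 CPM in the control mice (572 ± 43.1, SD, n = 4). In the zinc deficient mice they were 347, 388, 526 and 714 CPM (494 ± 166, SD, n = 4), from below the lowest control to above the highest. The edgeR log2 fold change was 0.11 ± 0.24 (SE, adjusted p = 0.922). It was -0.21 with scaling by library size, -0.01 without control mouse 1 and -0.16 without zinc deficient mouse 4, so no direction holds. Of 8 markers of pancreatic acinar cells, the best known source of this enzyme, 7 had 0 counts in every mouse and the eighth, Ctrb1, was at most 0.501 CPM.

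Rnh1, the inhibitor, was present at a low level in all mice. It had 74.3, 68.5, 61.8 and 63.1 CPM in the control mice (67.0 ± 5.71, SD, n = 4) and 61.9, 47.6, 82.9 and 89.0 CPM in the zinc deficient mice (70.3 ± 19.1, SD, n = 4). Of the zinc deficient mice, 2 lay above all controls and 1 below. The log2 fold change was 0.39 ± 0.17 (SE), with an adjusted p = 0.418 in the edgeR test, and 0.07 with scaling by library size. It was 0.22 without zinc deficient mouse 4, the highest in this gene, and 0.11 without that mouse and control mouse 1. Per length, Ang4 exceeded its inhibitor 478 to 661 times in the control mice and 589 to 1141 times in the zinc deficient mice.

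**Figure D4:**
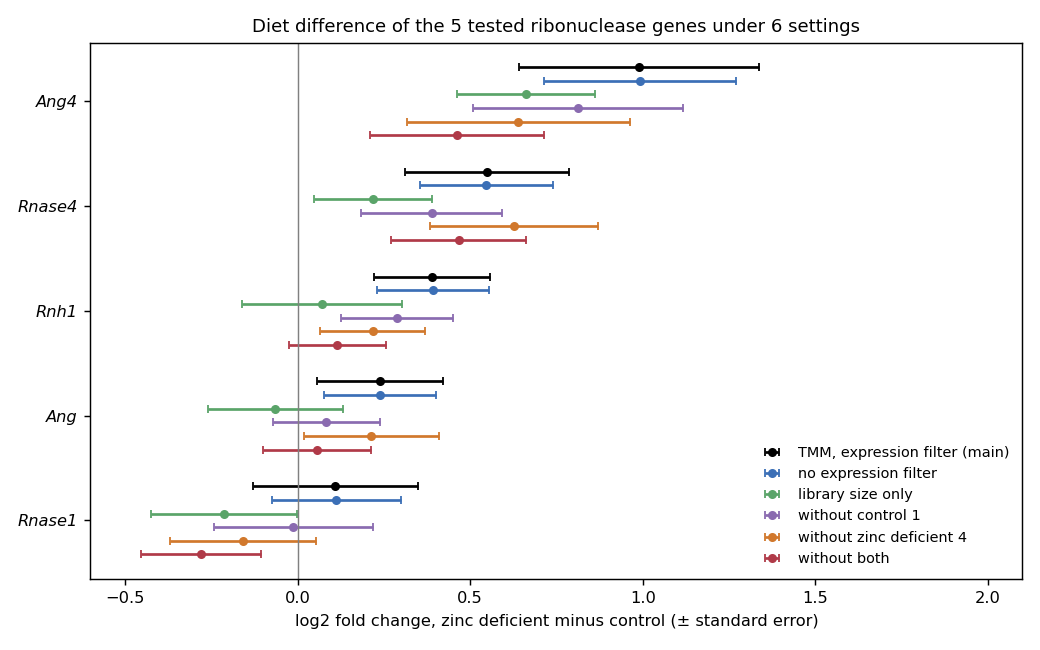
Log2 fold change between diets (zinc deficient minus control, ± standard error) for the 5 tested genes under 6 settings of the edgeR test, with a line at 0. Ang4, Rnase4 and Rnh1 stay to the right of 0 in all 6, while Ang and Rnase1 cross it, and Ang4 falls from 0.99 to 0.46 without control mouse 1 and zinc deficient mouse 4.

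Ang5 and Ang6 were close to absent from the counts. Ang5 had 2 counts in all, 1 each in zinc deficient mice 1 and 2, of 85938593 counts in the 8 libraries. Ang6 had 12 counts, of which 8 came from zinc deficient mouse 4, the mouse with the most Ang4 counts (422495), and at most 1 from each other mouse. The level that a count of 0 allows, 3 counts, was 0.237 to 0.351 CPM in a library, and 0.0349 CPM over all 8 summed. Neither gene passed the expression filter, and no fold is given for them. With no filter, their edgeR adjusted p-values were 0.631 for Ang5 and 0.599 for Ang6.

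Of 15 further RNase A family genes, 14 were in the table and 12 of them, among them the eosinophil-associated Ear genes, had 0 counts in all mice. The other two were Ang2 at a mean of 0.174 CPM and Rnase12 at 0.193 CPM, and none could be tested. Among receptors of angiogenin and enzymes that modify the transfer RNAs it cuts, 6 of 6 were tested and 0 passed, with a median log2 fold change of 0.06. Plxnb2, a receptor of angiogenin, had 0.14 (edgeR adjusted p = 0.787) at a mean of 75.2 CPM. Nsun2, a transfer RNA methyltransferase, had -0.01, the receptor gene Egfr -0.26 and the demethylase gene Alkbh3 0.44. Of 8 other ribonucleases, 4 were tested and 0 passed, with a median of -0.08. Dicer1, which processes microRNAs, had -0.06, N4bp1 -0.11 and Zc3h12a, which degrades inflammatory messenger RNAs, -0.32.

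The other antimicrobial and secreted proteins of Paneth cells give the setting of Ang4. Of 9 such genes 8 were tested, and 2 passed, both higher in the zinc deficient mice, where 0.147% of all tested genes were called higher. The list was chosen with earlier results of these data known, so this count is no test of the list. They were the bactericidal lectin genes Reg3b (log2 fold change 2.25 ± 0.33, SE, edgeR adjusted p = 0.0174) and Reg3g (1.60 ± 0.24, adjusted p = 0.0071). Mptx2 had 1.45 (adjusted p = 0.0712), Mmp7, the protease that activates defensins, 0.52, Lyz1 0.43 and the lectin gene Itln1 0.15, none of which passed. The median of the list was 0.98, which falls between 4 genes at 0.15 to 0.57 and 4 at 1.40 to 2.25. Of 14 cytokine receptors, sensors and secretory transcription factors, 13 were tested and 0 passed, with a median of 0.18. Among them, Spdef had 0.28, Bhlha15 0.20, Sox9 0.06 and Xbp1, a factor of the secretory stress response, -0.03.

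The genes whose levels followed those of each member most closely were sought among 10768 genes whose mean was 1 CPM or more, as Pearson correlations of log2(CPM + 1) on the TMM scale over the 8 mice. Ang4 was nearest to Pla2g12a (r = 0.986), Vmp1 (0.981) and Nme1 (0.981). Rnase4 was nearest to Tmem242 (0.984), Mrps36 (0.982) and Cib2 (0.982), and Rnase1 to Borcs8 (0.962), Ola1 (0.961) and Panx1 (0.961). Ang was nearest to Rnf7 (0.992), Drg1 (0.992) and Ndufa11 (0.990), and Rnh1 to Lap3 (0.989), Timmdc1 (0.979) and Dynlrb1 (0.978). These are the highest of 10768 correlations over 8 mice, and how high those of unrelated genes reach was not tested. The points share their libraries and scaling factors, and no member was among the nearest of another.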

How the data were processed

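The 8 libraries were prepared with a stranded mRNA kit (Illumina TruSeq). The values the authors deposited are whole-number read counts, not normalized, 1 per Ensembl identifier. The submitters' processing notes name FastQC 0.12.0, STAR 2.7.0a, DESeq2 and the build mm39, while for the counting program, its strand setting and its annotation the entry is: not given in the sources used here. Columns were matched to samples by diet and replicate number. Symbols came from GENCODE M39, in which 54749 of 55414 identifiers were found.

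The diet comparison used edgeR 4.0.16 under R 4.3.3 (scaling by TMM, expression filter, robust quasi-likelihood test, Benjamini-Hochberg threshold 0.05), with DESeq2 1.42.0 as an alternative. TPM used the summed exon length and a pseudocount of 0.1. On counts simulated from the means and library sizes of this comparison (10911 genes, 200 of them changed), 62% of 2-fold and 97% of 4-fold changes were called. Of the calls, 5.36% were false. The simulated libraries left out the TMM factors, which ran from 0.719 to 1.57 in the real libraries, so these rates hold for the simulated setting only. Other computations used Python 3.11.15, scipy 1.17.1 and biopython 1.88.

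The members and lists were chosen with earlier results of these data known. Named genes are the members, list genes past the threshold and up to 4 further genes a list by mean CPM, and markers that touch a result, which were chosen after their values were seen. The values of 1 list gene are not reported here. Alternatives were other scaling, filter, test, length and pseudocount, the replicate number as a block, and mice left out. Replicates were labelled biological, and no pair of libraries of the same diet agreed within counting noise.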

Additional observations from a re-analysis of the deposited data

Results flagged for a closer look

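Ang4 in zinc deficient mouse 4 lay far from the other mice of its group, at 33404 CPM against 16984 CPM in the nearest, a gap of 0.946 of the whole range of the group, above Dixon's 95% critical value for 4 samples. The same mouse stood apart in Ang6, with 0.633 CPM against 0.0907 CPM and a gap of 0.857 of the range, which rests on 8 counts. In all, 13 groups were looked at, and chance alone marks about 1 in 20 such groups.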

How the results depend on the processing

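Over 18 settings, the log2 fold change between diets stayed above 0 for Ang4 (0.46 to 1.17), Rnase4 (0.21 to 0.67) and Rnh1 (0.03 to 0.46), and was above 0 in 16 of 18 for Ang (-0.0646 to 0.38) and in 13 of 18 for Rnase1 (-0.28 to 0.26). With library size only, Ang was -0.0642 and Rnase1 -0.21, and in the exact permutation test of log2(CPM + 1) they were -0.0646 and -0.27. Leaving out a mouse at a time gave -0.16 to 0.26 for Rnase1 (-0.01 without control mouse 1, -0.16 without zinc deficient mouse 4), and leaving out both gave -0.28. Ang4 passed the threshold with no filter (0.99, so that 1 member was called) and, unadjusted, in the exact permutation test (0.59). The cause was not tested.

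The 44 genes called in all became 11 with library size only, 251 with no filter (of 18839 tested), 146 with DESeq2 and 25 without the robust option. Leaving out a mouse gave 8 to 36 calls: 8 without control mouse 2 or 4, 26, 13 and 17 without zinc deficient mouse 1, 2 and 4. With both control mouse 1 and zinc deficient mouse 4 left out, chosen after seeing the data, 0 members were called. Between neighbours in level, Rnase1 and Rnase4 differed by -0.35 with no length, and Ang and Rnh1 by -0.65 with the canonical transcript length, an alternative chosen after seeing the data, and 5 of 6 pairs passed in every leave-one-out setting.

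Replicate numbers are shared by the diets, but nothing in the sources used here says that they pair mice, so they were not taken as pairs. The correlations of same-numbered mice were 0.114, 0.0925, 0.0049 and 0.0926. For replicates 1, 2 and 4 the closest mouse of the other diet had the same number. Values were centred within each diet, so the small size of these correlations cannot decide whether mice were paired. With the replicate number as a block, 53 genes and 0 members were called, and Ang4 had a log2 fold change of 0.94. With 2 and 12 counts in 8 libraries, Ang5 and Ang6 did not reach the expression filter.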
